A study of Homo sapiens with 120 samples.

Results

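The metallothionein genes MT1A, MT1E, MT1F, MT1G, MT1H, MT1M, MT1X and MT2A were followed through cultures of HepG2, a cell line from a human hepatocellular carcinoma, after exposure to powders of nano-TiO2 or nano-CeO2. Members were chosen by name: a probe belonged to a member when the array annotation gave it that symbol. This gave 9 probes for 7 of the 8 named genes, out of 20046 genes measured, and MT1A was not analysed here because the annotation used pairs no probe with it. The arrays were Illumina HT-12 v4 beadchips, on which total RNA from each flask binds to beads that carry gene probes, and the deposited value of a probe is its brightness. All values below are log2 of that intensity, every array has a median of 6.62 on this scale, and the brightest probe of a gene stands for it.

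The 119 arrays used fall into 25 groups. Controls were 8 untreated flasks, and each treated flask was exposed for 72 h, after 48 h of growth, to 1 material at 0.3, 3 or 30 µg/mL. The TiO2 powders are coded A, from the vendor Degussa, H, from Mknano, and I, from Acros. The CeO2 powders are B and M from Nano Amor and C, D and L from Alfa Aesar. At 0.3 µg/mL a group had 4 flasks, and at 3 and 30 µg/mL it had 5, except M at 3 µg/mL with 4. A further array of M was in no group, because its title gives the low dose and its concentration label 3 µg/mL. The cells carry no introduced gene and are of 1 tumour line, and the labels give no genotype beyond that name. Of 11 measured hepatocyte markers, 11 had a mean level over 10, and of 11 measured markers of other cell types only ACTA2, an actin of smooth muscle, was over 8.

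Metallothioneins are small proteins rich in cysteine that bind zinc and copper, and also cadmium and other toxic metals. Their genes are transcribed when the factor MTF1 senses free zinc and binds metal response elements in their promoters, and glucocorticoids and oxidative stress raise several of them too. In liver they buffer zinc and copper, and MT2A and MT1X are among the forms described in many human cells, whereas other MT1 genes are more restricted. In the RefSeq gene order of chromosome 16 the members lie in 1 cluster, from MT2A over MT1E, MT1M, MT1A, MT1F, MT1G and MT1H to MT1X, with pseudogenes of the family between them. Because these genes are close copies, a probe for 1 member could also bind transcripts of another, which was not tested.

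Promoters are shown for the 3 members that the sequence table used here holds, because the results below turn on MT2A and MT1X, and MT1H went the other way in a set of arrays. The sequences are from RefSeq on GRCh38.p14, plus strand, 250 bases before to 50 bases after the gene start, at chr16:56608334-56608633 for MT2A, chr16:56682220-56682519 for MT1X and chr16:56669564-56669863 for MT1H. Capitals mark the core of the metal response element, spelled TGCACNC or TGCGCNC and searched on both strands, and no matches overlapped.
MT2A: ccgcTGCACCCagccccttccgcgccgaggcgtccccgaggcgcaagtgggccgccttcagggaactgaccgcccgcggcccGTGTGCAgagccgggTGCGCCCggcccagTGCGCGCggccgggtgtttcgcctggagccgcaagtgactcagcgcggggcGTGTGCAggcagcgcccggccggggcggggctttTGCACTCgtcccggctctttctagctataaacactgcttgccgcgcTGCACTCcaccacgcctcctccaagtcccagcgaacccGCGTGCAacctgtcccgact
MT1X: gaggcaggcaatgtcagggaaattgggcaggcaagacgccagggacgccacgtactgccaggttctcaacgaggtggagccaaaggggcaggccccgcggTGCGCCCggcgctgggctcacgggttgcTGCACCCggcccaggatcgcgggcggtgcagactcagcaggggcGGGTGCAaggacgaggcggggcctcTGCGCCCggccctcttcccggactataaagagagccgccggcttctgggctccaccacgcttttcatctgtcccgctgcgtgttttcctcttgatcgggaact
MT1H: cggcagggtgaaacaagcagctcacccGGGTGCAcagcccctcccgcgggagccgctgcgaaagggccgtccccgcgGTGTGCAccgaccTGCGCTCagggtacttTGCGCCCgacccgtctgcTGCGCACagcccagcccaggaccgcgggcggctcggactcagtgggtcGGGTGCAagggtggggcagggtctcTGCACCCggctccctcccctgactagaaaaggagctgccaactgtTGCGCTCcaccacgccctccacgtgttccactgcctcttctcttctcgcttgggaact
MT2A held 8 cores, MT1H 8 and MT1X 4. Of 35116 promoters of the same length, 29.55% held at least 1 core, 0.6% held at least 4 and 0.02% at least 8. These matches describe the letters of the windows and not where a factor binds.

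Some arrays differed from the rest before any group was compared. A principal component analysis put 38.1% of the variance on its first axis, where 9 arrays were separated from the other 110: their scores were 39.4 or more, and the others reached 7.04. They were replicates 3 and 4 of M at 30 µg/mL, 1 and 2 of H at 30, 3 of A at 30, 3 of I at 0.3, 4 of I at 3 and, for L, 3 at the low and 1 at the high dose. No control array was among them, and in the order of deposit they were arrays 59 to 67. The metallothioneins moved with this separation, so results that rest on these arrays are given with and without them, a choice made after the data were seen. MT2A was higher in 9 of the 9 arrays than in each array of its group that does not stand apart, by a mean of 0.92 on the log2 scale. MT1X was likewise above each of those arrays in 9 of 9, by a mean of 1.18. MT1E was higher than the mean of its group's other arrays in 8 of 9 (mean difference 0.76) and MT1G in 8 of 9 (0.53). MT1H went the other way, below each of those arrays in 8 of 9, with a mean difference of -0.77. MT1F was higher in 6 of 9 (mean 0.14) and MT1M in 6 of 9 (0.06). These counts have no share of all genes beside them. The 9 arrays were set apart by an axis over all genes, so the counts do not show a shift particular to this family. The hepatocyte marker list moved too. In M at 30 µg/mL its mean level per array ran from 12.36 to 13.20, against 12.93 to 13.15 in controls. What set these arrays apart was not tested.

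**Figure D1:**
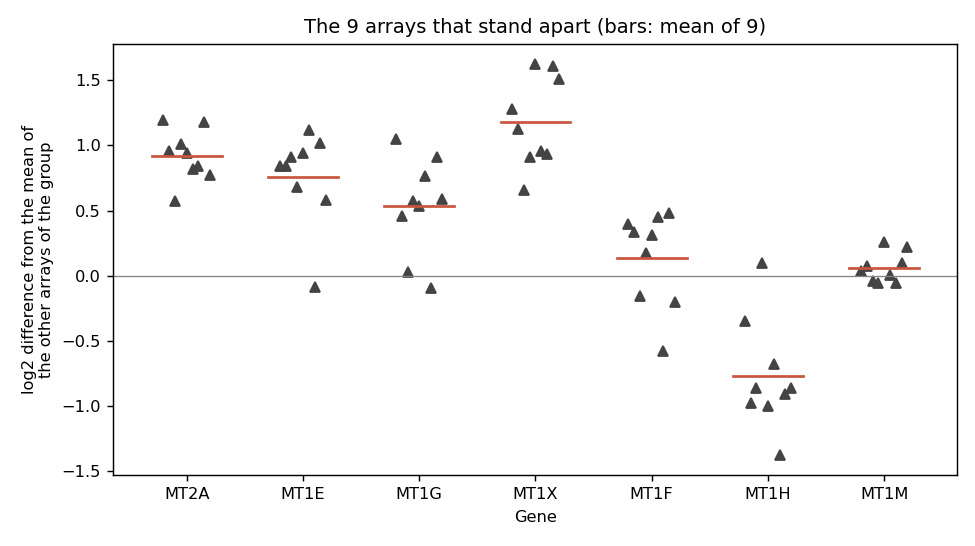
Difference in log2 intensity between each of the 9 arrays that stand apart (triangles) and the mean of the other arrays of its group, for each of the 7 measured metallothioneins, with bars for the mean of 9. MT2A and MT1X lie above 0 in 9 of 9 arrays and MT1H below 0 in 8 of 9.

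In untreated cells the MT2A probe was the brightest of the family. MT2A, the human MT2 gene, had a control mean of 12.62 ± 0.22 (SD, n = 8), with a lowest array of 12.40, a median of 12.53 and a highest of 12.92. The control means of the other probes were 11.59 ± 0.36 for MT1E, 10.56 ± 0.34 for MT1G, 10.30 ± 0.36 for MT1X, 9.54 ± 0.36 for MT1F, 7.89 ± 0.31 for MT1H and 6.57 ± 0.06 for MT1M (SD, n = 8 each). These levels are not per length and belong to different probes, so they rank no gene against another. The MT1M probe lay at the median of the array, near the dimmest probes, and its differences are small ones near that floor. The second probes of MT1E and MT1H lay there too, at means of 6.65 and 6.54 over all arrays, and neither passed against control in any of the 24 groups. The adjusted p of the MT1E second probe over the 25 groups was 0.616, against 0.00374 for the bright probe among all probes.

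The levels of most members varied with the group, but neighbouring groups were close. Over the 25 groups, 6 of 7 members passed limma's F test, against 37.5% of all genes, and MT1H did not (adjusted p = 0.108). With the 9 arrays left out 7 of 7 passed, against 45.1% of all genes. For MT2A the group means ran from 12.11 ± 0.25 in H at 0.3 µg/mL to 13.33 ± 0.38 in M at 30. For MT1E they ran from 11.04 ± 0.25 in M at 0.3 to 12.17 ± 0.44 in M at 30, so both ends of its range were doses of M. MT1G was lowest in M at 0.3 (9.80 ± 0.46) and highest in L at 0.3 (11.10 ± 0.07). MT1X was lowest in L at 3 (9.55 ± 0.24) and highest in M at 30 (10.73 ± 0.67). MT1F went from 8.98 ± 0.45 in M at 0.3 to 9.87 ± 0.45 in C at 30. M at 0.3 µg/mL was thus the lowest group for MT1E, MT1F and MT1G, and M at 30 the highest for MT1E, MT1X and MT2A. These ranks leave out the M array of unclear dose, which read 11.98 for MT1E, 10.41 for MT1F and 11.38 for MT1G. If its title gives the true dose, these 3 means of M at 0.3 µg/mL would be higher. The ranks with that array were not computed, and M at 0.3 may then not be the lowest. Without the 9 arrays M at 30 was still the highest for MT1E (11.87) and MT2A (13.06), but the highest for MT1X was D at 0.3 (10.62) and the lowest H at 30 (9.43). MT1H was lowest in B at 30 (7.52 ± 0.12) and highest in M at 3 (8.22 ± 0.18), or without the 9 arrays in L at 0.3 (8.45), and MT1M ran from 6.49 ± 0.06 in I at 0.3 to 6.73 ± 0.04 in L at 0.3. When the 25 group means of a member were put in order, none of the 24 steps between neighbours was larger than the larger SD of the 2 groups, for each of the 7 members. The largest step was 0.32, for MT1E between B at 3 and M at 30.

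**Figure D2:**
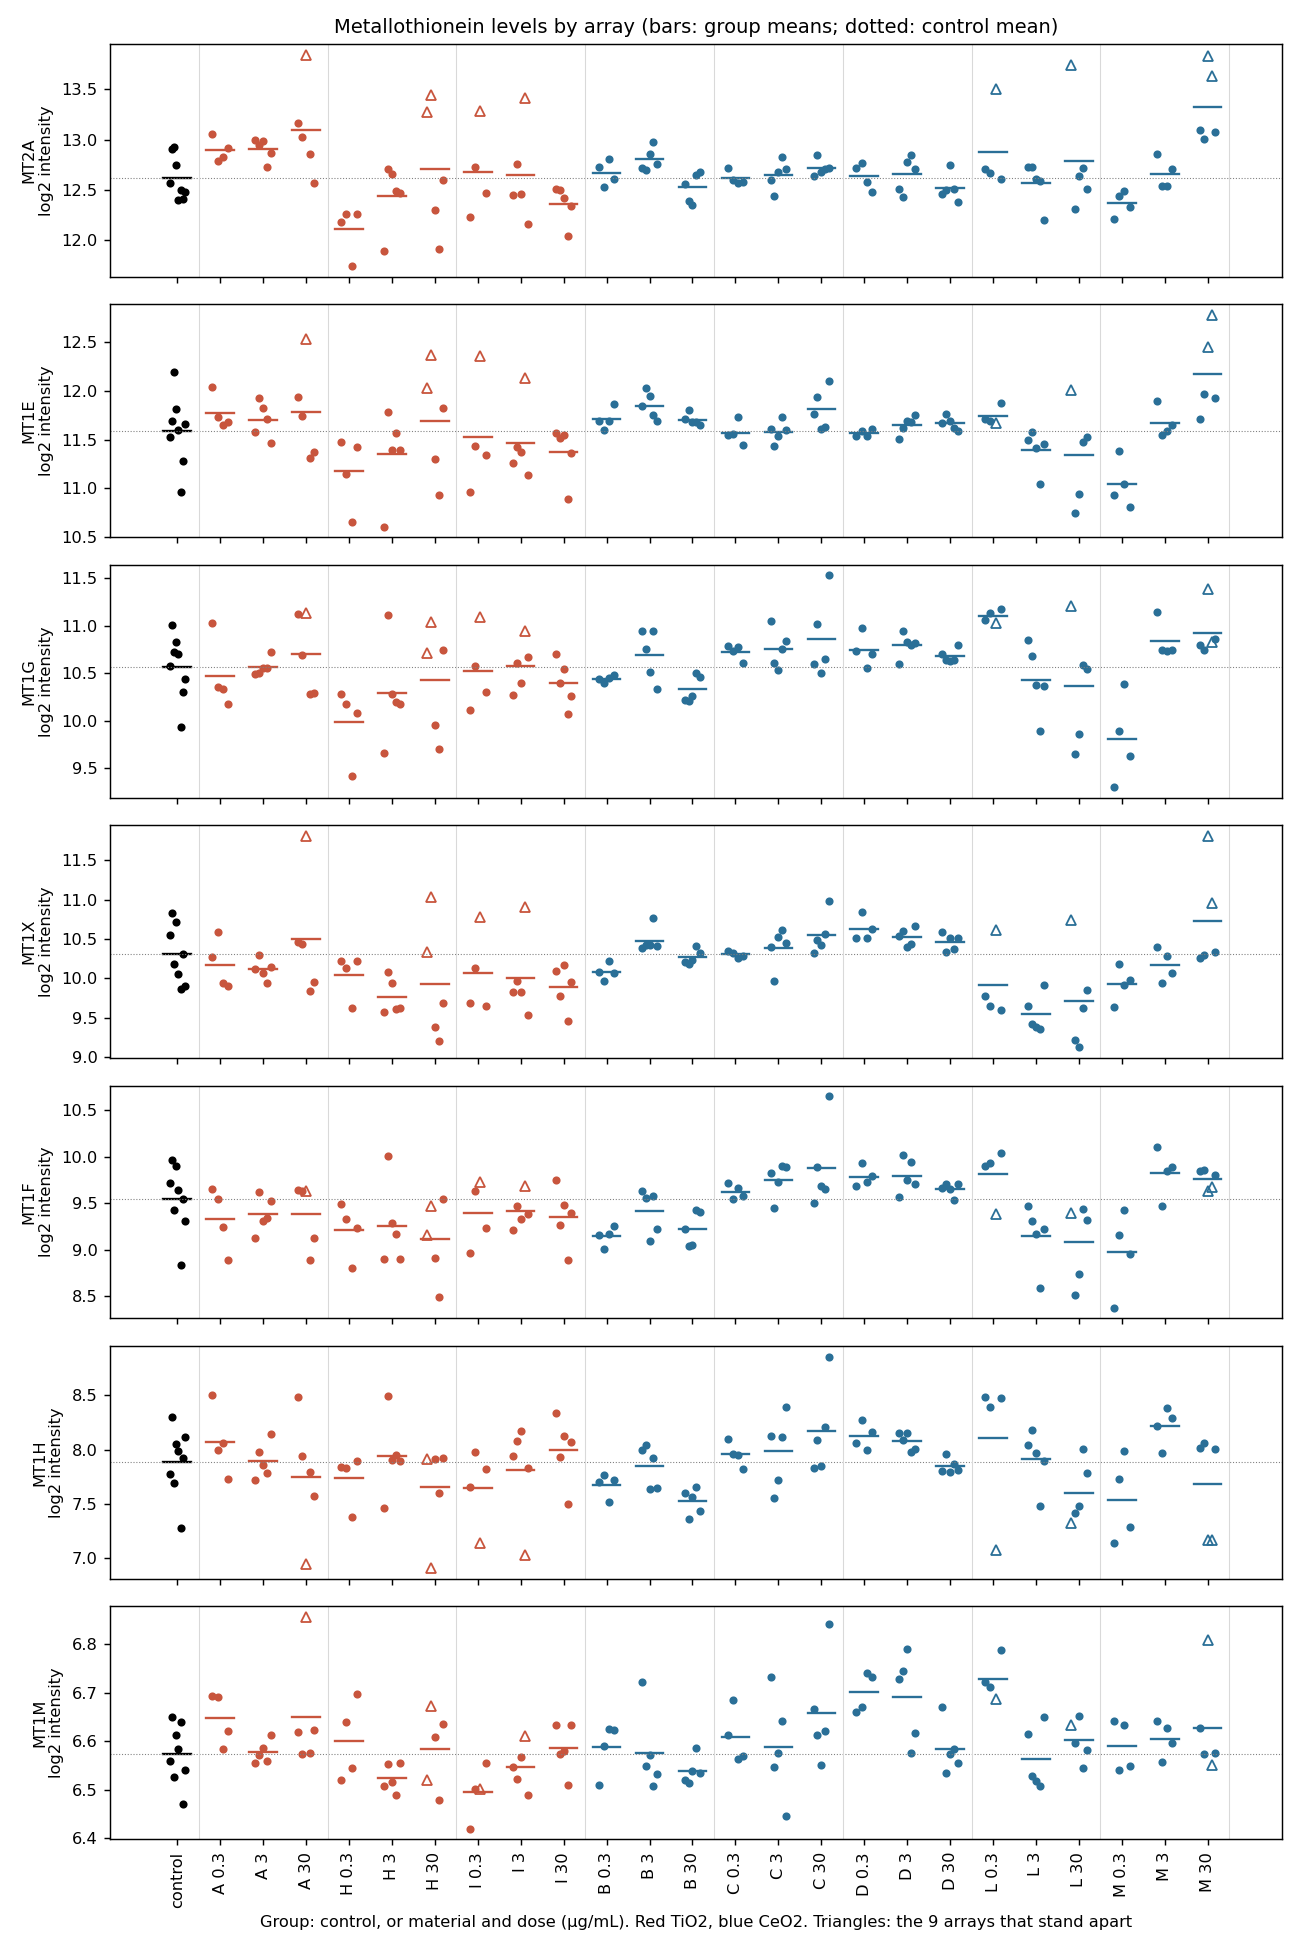
Log2 intensity of the 7 measured metallothioneins in each of 119 arrays (points), by control or by material and dose in µg/mL, with group means as bars, the control mean dotted, TiO2 in red and CeO2 in blue. Triangles are the 9 arrays that stand apart, which lie high for MT2A and MT1X, and M at 30 has the highest MT2A mean (13.33).

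Against the controls few metallothioneins changed. Of 168 pairs of a member and a treated group, 3 rose and 1 fell by limma's test (adjusted p under 0.05), which is 2.38%, against 3.48% of all gene and group pairs (2.33% higher, 1.15% lower), and 21 pairs had an unadjusted p under 0.05. The share of members was thus near the background. The groups with a call were M at its high dose and L at its low and middle doses. In the other 21 groups 0 members were called, and 15 pairs there had an unadjusted p under 0.05. All comparisons share the same 8 controls.

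MT2A rose in M at 30 µg/mL. Its 5 flasks read 13.09, 13.00, 13.83, 13.63 and 13.07, and the controls ended at 12.92. The 5 treated arrays therefore lay above the controls without overlap, and the pair that stands apart was the highest. The change was 0.71 ± 0.17 (SE), or 1.64-fold, with an adjusted p of 0.00124, in a comparison where 10.5% of all genes rose. It was 0.44 ± 0.12 without the 9 arrays, adjusted p = 0.0121.

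MT1E rose in the same group by less certain values. Its 5 flasks read 11.71, 11.97, 12.45, 12.78 and 11.93, against controls from 10.96 over a median of 11.63 to 12.20. The groups overlapped, and the arrays above the highest control were those that stand apart. The change was 0.58 ± 0.18 with an adjusted p of 0.0149. Without replicate 3 or without replicate 4 it no longer passed, and without the 9 arrays it was 0.28 ± 0.16 (adjusted p = 0.345). For the other members in M at 30, the differences from control were 0.43 for MT1X, 0.36 for MT1G, 0.22 for MT1F, 0.05 for MT1M and -0.21 for MT1H, and none passed. Without the 9 arrays MT1X was level with control there (-0.00470 ± 0.15), MT1H lay above it (0.14 ± 0.17), MT1G was at 0.24, MT1F at 0.29 and MT1M at 0.02, and again none passed. The median over the 7 was 0.36, against 0.00736 over all genes, and 0.24 without the 9 arrays.

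Other cell markers were measured beside this group. Of 11, 1 rose in M at 30 µg/mL, where 10.5% of all genes rose. This was COL1A1, a collagen of connective tissue, which rose by 0.85 ± 0.11 (adjusted p = 4.59e-09), from a control mean of 6.91 ± 0.19. Without the 9 arrays COL1A1 rose by 0.48 ± 0.09 (adjusted p = 9.64e-05). The mean level of the 11 ran from 7.12 to 7.29 over the M arrays and from 7.02 to 7.12 over controls. The group mean was 7.19 in M at 30 with all arrays and 7.14 without those that stand apart, and 7.09 in controls. Of 11 hepatocyte markers, 1 rose in M at 30 (APOB, by 0.51) and 2 fell (FGB by 0.76 and AHSG by 0.41), where 6.87% of all genes fell. Without the 9 arrays 3 of them rose and 0 fell, against 4.55% of all genes higher and 3.54% lower. The part of either marker list in the metallothionein change was not tested.

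MT1X fell in L at 3 µg/mL. Its 5 flasks read 9.65, 9.43, 9.38, 9.36 and 9.92, against controls from 9.87 over a median of 10.25 to 10.82. Of the treated flasks, 4 lay below the lowest control. The change was -0.76 ± 0.22 with an adjusted p of 0.0280, and 1.37% of all genes fell there. The call was lost when control replicate 1, 2 or 4 was left out. It was also lost when the arrays of any 1 number from 1 to 4 were left out at the lower doses of every material. The adjusted p in these fits went up to 0.132. No array of this group stands apart, and without the 9 arrays in other groups the same change had an adjusted p of 2.10e-05, with an SE of 0.13 from the smaller spread shared by all groups.

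MT1M rose in L at 0.3 µg/mL by 0.15 ± 0.04 (adjusted p = 0.00682), near the floor of the array. Its 4 flasks read 6.72, 6.71, 6.69 and 6.79, above the highest control of 6.65. Leaving out replicate 4 of every material at the lower doses, not of L alone, took the adjusted p to 0.0584. In the same comparison 8.47% of all genes rose.

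Counted per probe, the calls also numbered 4, against 2.07% of all probe tests. Leaving out the 9 arrays raised the count against control from 4 to 15, with 4 higher and 11 lower, against 4.5% of all gene and group pairs (2.82% higher, 1.68% lower). MT1X gave 8 of the 11 falls. It fell in L at 0.3, 3 and 30 µg/mL by 0.63, 0.76 and 0.84, in I at 0.3, 3 and 30 by 0.48, 0.52 and 0.41, and in H at 3 and 30 by 0.54 and 0.87. With all arrays the H 30 difference was -0.37 ± 0.22 (adjusted p = 0.316). In H at 30, replicates 1 and 2, which stand apart, read 10.34 and 11.04, and replicates 3 to 5 read 9.39, 9.21 and 9.69. For L at 30 µg/mL replicate 1, which stands apart, read 10.74, and the other 4 read 9.22, 9.12, 9.63 and 9.86. Their difference from control was -0.59 ± 0.22 with all arrays and -0.84 ± 0.14 without the 9.

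The other calls gained without the 9 arrays were spread over members. MT2A fell in H at 0.3 µg/mL by 0.51 (adjusted p = 0.0192), where no array was left out and the flasks read 12.18, 12.26, 11.74 and 12.26, below the lowest control. MT1F fell in L at 30 by 0.54, at an adjusted p of 0.049999, and MT1G fell in M at 0.3 by 0.76. In L at 0.3, MT1G and MT1H rose by 0.56 each, and MT1M, already called with all arrays, by 0.17. MT1H in that group read 8.49, 8.40 and 8.47 in 3 flasks and 7.08 in replicate 3, which stands apart.

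No member passed against control in A, B, C or D with all arrays. MT2A in A differed from control by 0.28 ± 0.18 at 0.3 µg/mL, 0.29 ± 0.17 at 3 and 0.48 ± 0.17 at 30 (adjusted p = 0.825, 0.478 and 0.0629). Its flasks at 30 read 13.17, 13.03, 13.85, 12.86 and 12.57, which overlapped the controls, and the highest was replicate 3, which stands apart. At 30 µg/mL without that array and the other 8 the difference was 0.29 (adjusted p = 0.0888), and no A array at the lower doses stands apart. In C at 30 µg/mL 7 of 7 members were above control, by 0.33 ± 0.17 for MT1F, 0.30 ± 0.19 for MT1G and 0.28 ± 0.19 for MT1H, and all 3 overlapped the controls. In B at 30 MT1H differed from control by -0.37 ± 0.19 and MT1F by -0.32 ± 0.17. Each of these 5 differences has a 95% interval that includes 0.

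**Figure D3:**
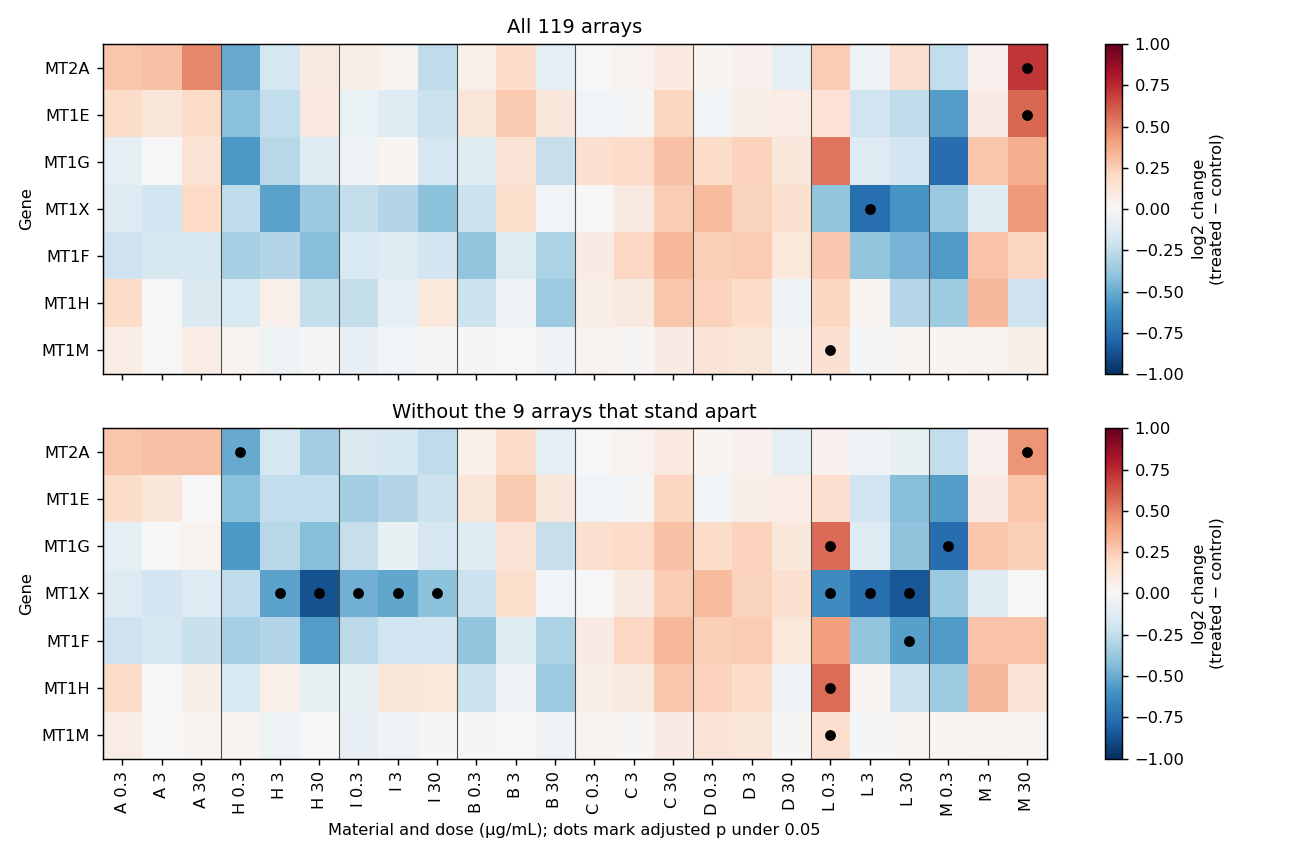
Log2 change against control of the 7 measured metallothioneins (rows) in 24 material and dose groups (columns), with all 119 arrays above and without the 9 arrays that stand apart below, and dots where the adjusted p was under 0.05. The calls number 4 above and 15 below, and 8 of the latter are falls of MT1X in H, I and L.

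Dose was compared within each material, which uses no control. Over the 8 materials 6 of 56 member tests passed, or 10.7% against 1.96% of all gene tests, and without the 9 arrays 7 did, or 12.5% against 0.919%. In M the metallothioneins rose from 0.3 to 30 µg/mL: 5 of 7 members passed, all 5 higher, in a comparison where 7.61% of all genes passed and 5.48% were higher. The rise was 1.13 ± 0.21 for MT1E, 1.12 ± 0.22 for MT1G, 0.96 ± 0.20 for MT2A, 0.80 ± 0.26 for MT1X and 0.78 ± 0.20 for MT1F (SE, 5 against 4 flasks). The differences were 0.15 ± 0.22 for MT1H and 0.04 ± 0.05 for MT1M, which did not pass, and without the 9 arrays they were 0.49 ± 0.19 and 0.00122 ± 0.05, which did not pass either. The median over the 7 was 0.80, against 0.0105 over all genes, and 0.69 without the 9 arrays.

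The flasks of M show where this came from. At 0.3 µg/mL MT2A read 12.21, 12.44, 12.49 and 12.33. At 3 µg/mL it read 12.86, 12.54, 12.54 and 12.70, and at 30 µg/mL the values were those given above, from 13.00 to 13.83. The 3 dose groups did not overlap. MT1E read 10.93, 11.38, 11.05 and 10.80 at the low dose and 11.90, 11.54, 11.59 and 11.65 at the middle dose, so these groups did not overlap either. MT1G read 9.30, 9.90, 10.39 and 9.62 at the low dose and 10.80, 10.75, 11.39, 10.83 and 10.86 at the high dose. MT1F read 8.37, 9.16, 9.43 and 8.96 at the low dose and 9.84, 9.85, 9.63, 9.67 and 9.80 at the high dose. MT1X read 9.64, 10.18, 9.91 and 9.99 at the low dose and 10.26, 10.29, 11.81, 10.96 and 10.34 at the high dose. For each of these 5 members the assigned groups at 0.3 and 30 µg/mL did not overlap. The share of all genes that separate as fully is not given here, so this only describes the flasks. The low dose itself differed from control by -0.55 for MT1E and by -0.76 for MT1G, and neither passed (adjusted p = 0.726 and 0.409).

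The M array that the labels place at either 0.3 or 3 µg/mL was in none of these tests, and it read high. Its values were 11.98 for MT1E, 10.41 for MT1F, 11.38 for MT1G, 8.50 for MT1H, 6.68 for MT1M, 10.66 for MT1X and 12.87 for MT2A. For 7 of 7 members this was above every assigned M flask at 0.3 µg/mL, and above every one at 3 µg/mL. The share of all genes that lay above those flasks is not given here. The array was also above the lowest M flask at 30 µg/mL for 6 of 7 members. Those lowest flasks read 11.71 for MT1E, 9.63 for MT1F, 10.75 for MT1G and 10.26 for MT1X. For MT2A the array lay under the lowest, 13.00. If its title gives the true dose, the low and high doses of M overlap for 4 of the 5 members that rose, all but MT2A, and the rises above are larger than they would be with it. The low and middle doses would then overlap for MT2A and MT1E too.

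The adjusted p for M was 1.69e-04 for MT1E, 4.62e-04 for MT1G, 8.50e-04 for MT2A, 0.00764 for MT1F and 0.0384 for MT1X. When the 9 arrays were left out MT1E rose by 0.83, MT1G by 1.00, MT2A by 0.69 and MT1F by 0.85, and each passed, against 1.12% of all genes higher. MT1X was then at 0.37 ± 0.17 (adjusted p = 0.344), and it also lost its call without M replicate 3 or 4 at 30 µg/mL. Leaving out any 1 of the numbers 1 to 4 at the lower doses of every material lost it too. MT1F lost its call without replicate 1 of every material at the lower doses (adjusted p = 0.138).

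In H only MT2A passed from 0.3 to 30 µg/mL, at 0.60 ± 0.20 (adjusted p = 0.0468, with 4.88% of all genes higher). At 30 µg/mL its flasks read 13.28, 13.45, 12.30, 11.91 and 12.59, and the first 2, which stand apart, were the highest. The difference was 0.16 ± 0.14 without the 9 arrays (adjusted p = 0.607). The call was also lost without replicate 1 or 2 of H at 30 µg/mL. Leaving out any 1 of the numbers 1 to 4 at the lower doses of every material lost it too. Without the 9 arrays MT1X in H was lower at 30 than at 0.3 µg/mL, a fall of 0.62 (adjusted p = 0.0166, with 2.77% of all genes lower). With all arrays MT1X differed by -0.12.

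L ran the other way. All 7 members were lower at 30 than at 0.3 µg/mL, with a median difference of -0.40 (-0.59 without the 9 arrays), and 0 passed limma's test, although 4 had an unadjusted p under 0.05 and 0.015% of all genes passed. MT1G, for one, read 11.07, 11.14, 11.03 and 11.18 at 0.3 µg/mL and 11.21, 9.65, 9.86, 10.58 and 10.54 at 30, where the highest value is the array that stands apart. Its difference was -0.73 ± 0.22 with an adjusted p of 0.598. Leaving out the 9 arrays, MT1F fell by 0.96 and MT1G by 0.97 (adjusted p = 0.0477 each), against 0.0998% of all genes lower. In A, B, C, D and I, 0 members were called in this comparison with or without the 9 arrays, and 1 test of those 5 materials had an unadjusted p under 0.05.

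Whether the change with dose differed among materials was tested as well. An F test of the 30 minus 0.3 difference over the 8 materials passed for MT1E, MT1F, MT1G and MT2A, that is 4 of 7 members against 5.88% of all genes. The adjusted p was 0.00242 for MT1G, 0.00615 for MT1E, 0.00955 for MT2A and 0.0117 for MT1F. MT1M (0.111), MT1X (0.332) and MT1H (0.360) did not pass. Once the 9 arrays were left out 6 of 7 passed, against 4.39%, and MT1M did not.

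**Figure D4:**
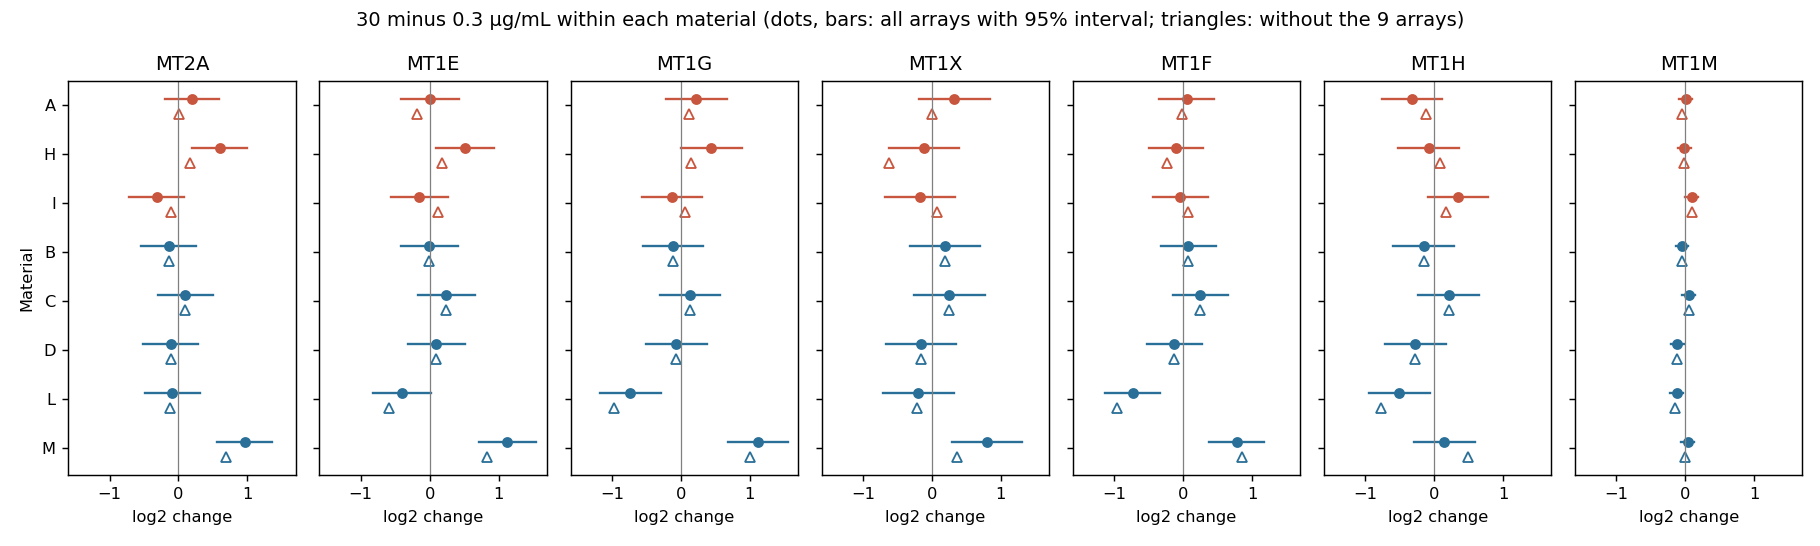
Log2 change from 0.3 to 30 µg/mL (horizontal axes) within each of 8 materials (vertical axis) for the 7 measured metallothioneins, with dots and 95% intervals for all arrays and triangles without the 9 arrays that stand apart. M is above 0 by 0.78 to 1.13 for MT1E, MT1F, MT1G, MT1X and MT2A, and L is at or below 0 for each member.

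At 30 µg/mL the materials differed from each other in 4 of 7 members by limma's F test over the 8 materials, against 37.6% of all genes. The adjusted p was 1.24e-04 for MT2A, 4.17e-04 for MT1F, 0.00100 for MT1X and 0.00842 for MT1E. MT1G had an adjusted p of 0.0540, MT1H of 0.108 and MT1M of 0.244. When the 9 arrays were left out 6 of 7 passed, against 39.8% of all genes, and MT1M did not. Among 28 pairs of materials, 23 of 196 member tests passed, which is 11.7%, against 8.11% of all gene tests, and 64 had an unadjusted p under 0.05. M took part in 14 of the 23, from 49 member tests. In the pairs with M, from 8.61% (with L) to 24.4% (with B) of all genes passed. The count without the 9 arrays was 48, or 24.5% against 9.14%, and the material with the highest count was C, with 18 from 49 member tests. The share of all genes in the pairs with C is not given here for that fit.

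MT2A was higher in M than in 5 other materials. Its level in M exceeded that in I by 0.97 (adjusted p = 4.30e-05), in D by 0.81 (9.68e-04), in B by 0.80 (6.27e-04), in H by 0.62 (0.0159) and in C by 0.61 (0.0192). B and M carry the same vendor name. The flasks of B read 12.56, 12.39, 12.35, 12.65 and 12.68, all under the lowest M flask of 13.00. The first 4 of these differences also passed without the 9 arrays, at 0.70, 0.54, 0.53 and 0.79, and that against C was 0.34 (adjusted p = 0.0869). MT2A was also higher in A than in I by 0.74 and than in B by 0.57, and without the 9 arrays by 0.55 and 0.38, which also passed. For the pairs of M with A and with L, MT2A was not called with all arrays.

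MT1X and MT1F were lower in L than in C, D and M. MT1X in L was below M by 1.02, below C by 0.84 and below D by 0.75, and C, D and L carry the same vendor name. The flasks of C read 10.32, 10.49, 10.43, 10.56 and 10.98 and those of D read 10.59, 10.34, 10.51, 10.37 and 10.52. The 4 flasks of L that do not stand apart lay below all of these, and the one that does lay within them. Without the 9 arrays the differences of L from C and from D were 1.10 (adjusted p = 3.12e-07) and 1.00 (8.52e-06), and that from M was 0.84 (5.14e-04). With all arrays MT1X in L was not called against A, B, H or I. MT1F in L was below C by 0.80, below M by 0.68 and below D by 0.57. MT1F was also lower in H than in C (0.76) and M (0.65), and lower in B than in C (0.65) and M (0.53). The MT1F level in L, 9.08, differed from H by 0.04 and from B by 0.15, neither called. These 7 calls of MT1F also passed without the 9 arrays. The 5 C flasks of MT1F were spread widely, from 9.50 to 10.65.

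The remaining calls were few. MT1E was lower than in M in I by 0.80 and in L by 0.83, and without the 9 arrays by 0.50 (adjusted p = 0.0348) and 0.70 (0.00733). MT1X was lower than in M in H by 0.80 and in I by 0.84. Without the 9 arrays the H difference was 0.87 (adjusted p = 4.28e-04), while that in I was 0.41 and no longer passed (0.0817). MT1G was lower in B than in M by 0.59, a call lost without the 9 arrays (0.47, adjusted p = 0.146). MT1H was lower in B than in C by 0.64, in groups where no array stands apart. MT1M gave no call.

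The labelled oxides did not separate the members. With the material as the replicate, 5 CeO2 against 3 TiO2 means, 0 of 7 members passed limma's test at each dose, and 0 had an unadjusted p under 0.05. Of all genes 0%, 0.00499% and 0% passed at 0.3, 3 and 30 µg/mL. At 30 µg/mL MT2A averaged 12.77 ± 0.33 over the CeO2 materials and 12.72 ± 0.37 over the TiO2 materials (SD over 5 and 3 materials), a difference of 0.05 ± 0.23 (SE). The lowest unadjusted p at any dose was 0.0692, for MT1G at 3 µg/mL. With 8 materials such a comparison has little precision.

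Members moved together across arrays to different degrees, which is given as a description without a test, because the arrays share groups and a normalization. Over the 110 arrays that do not stand apart, MT1F and MT1G had a Pearson r of 0.89 (Spearman rho 0.88), MT1G and MT1H of 0.79 (0.73), MT1E and MT1G of 0.77 (0.66) and MT1E and MT2A of 0.72 (0.65). MT2A and MT1X, of which promoters are shown above, had an r of 0.45 (0.40) over these arrays. Over the 9 arrays apart MT2A and MT1X had an r of 0.77 (0.63), and MT1F and MT1H of -0.69 (-0.37).

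Genes outside the family with the most similar pattern were taken by Pearson r with the mean of the centred members over 119 arrays. The highest were S100A6, a calcium-binding protein (r = 0.70), TSPO, a protein of the outer mitochondrial membrane (0.69), COMMD4 (0.68), CLTB, a clathrin light chain (0.68), and BCAS4 (0.67). Over the 110 other arrays these were 0.65, 0.65, 0.63, 0.63 and 0.61. The lowest were NBEA (-0.65), TUBGCP4, of the gamma-tubulin complex (-0.63), and ZNF512 (-0.63). For MT2A the highest were AXL, a receptor tyrosine kinase (0.80), PFN1, profilin (0.79), and CFL1, cofilin (0.78), which without the 9 arrays came to 0.61, 0.51 and 0.47. For MT1X they were ESAM, an adhesion molecule (0.80), YJU2 (0.78) and RPL36A, a ribosomal protein (0.78), and without the 9 arrays 0.71, 0.70 and 0.73.

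Other genes of metal handling were counted at 30 µg/mL over the 8 materials, where 5.87% of all gene tests passed. Of the 5 measured other genes of the metallothionein family (MT1B, MT1L, MT1IP, MT3 and MT4), each near the median of the array, 1 call was made, a fall of MT1IP in A by 0.08. Of 10 zinc exporters of the SLC30 family, 3 calls were higher and 4 lower in 80 tests. SLC30A1, the exporter that MTF1 is known to activate together with metallothioneins, fell in I by 0.32 ± 0.09 (adjusted p = 0.0331) and passed in no other material at this dose. It was named after its values were seen. SLC30A3 rose in M by 0.28 and in L by 0.23, SLC30A7 rose in A by 0.50, and in M SLC30A5 fell by 0.80 and SLC30A10 by 0.16. SLC30A5 still fell in M without the 9 arrays, by 0.46, and the calls of SLC30A3 and SLC30A10 were lost.

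Of 14 zinc importers of the SLC39 family, 6 calls were higher and 3 lower in 112 tests. SLC39A14, which carries zinc and iron into liver cells, rose in L by 0.85 ± 0.15 (adjusted p = 8.65e-05) and in H by 0.71 ± 0.15 (8.23e-04), and without the 9 arrays by 0.61 and 0.55. SLC39A5 fell in A by 0.83 ± 0.13 (1.48e-06), with no overlap of the groups. SLC39A4 rose in L by 0.45 and in M by 0.32, and SLC39A1 rose in M by 0.41. Without the 9 arrays, neither of these passed in M. Of 6 regulators, MTF1, the metal-sensing factor, rose in A by 0.33 ± 0.08 (adjusted p = 0.00154), where no metallothionein passed. USF1 fell in A by 0.32 and in L by 0.17, and the call in L was lost without the 9 arrays.

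Of 12 copper genes, 7 calls were higher and 3 lower in 96 tests. ATP7B, the copper exporter of hepatocytes, rose in H by 0.73, L by 0.52, I by 0.48 and A by 0.39, each also without the 9 arrays. SLC31A1, the copper importer, rose in H by 0.76 and in I by 0.50, and COX11, a copper chaperone of mitochondria, fell in H by 0.24 and in M by 0.22, with both COX11 calls lost without the 9 arrays. SCO2, another mitochondrial copper protein, rose in M by 0.63, a call also lost without them.

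Of 12 glucocorticoid targets, 3 calls were higher and 3 lower in 96 tests. Of these calls 5 were in M, where 17.4% of all genes passed in either direction. TSC22D3, a classical target, fell in M by 0.68 ± 0.13 (adjusted p = 6.60e-05), while FKBP5 rose there by 0.41, DUSP1 by 0.44 and TAT, named after its values were seen, by 0.16. SGK1 fell in A by 0.57 and in M by 0.40. TSC22D3 also fell in M without the 9 arrays (-0.45) and TAT rose (0.23), and FKBP5, DUSP1 and SGK1 did not pass there. Of 10 genes of metal and oxidative stress, 9 calls were higher and 4 lower in 80 tests. TXNRD1, a thioredoxin reductase, rose in A by 0.87, M by 0.53, H by 0.46 and L by 0.45, and SRXN1, sulfiredoxin, rose in H by 0.61, A by 0.60 and M by 0.40. GCLC, of glutathione synthesis, fell in L by 0.28 and in M by 0.27, and HSPA1B, a heat shock chaperone, fell in A by 0.99. The calls of TXNRD1 in L, SRXN1 in M and GCLC in both materials were lost without the 9 arrays.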

How the data were processed

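Probe values are deposited intensity on a linear scale, for which the series text names the beadarray package (2.4.1) and R (2.14.0). The background correction and normalization behind them, and any build, are not stated there. Every array has a median intensity of 98.4 (range of values 52.5 to 18529), so the deposited values were already brought to 1 distribution, and a change is one relative to the rest of the array. The number of arrays limits precision.

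Groups came from the labels. For 1 array of M the labels disagree on the dose (low against 3 µg/mL), so 119 of 120 arrays were compared. The labels code 8 materials although the series text counts fewer formulations, and each code was kept as its own material. Replicates are called biological in the series text. The title letters of controls were not read as materials. Of 48107 probes, 30113 have 1 gene symbol, 8 several and 17986 none.

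The log2 values were fitted with limma 3.58.1 in R 4.3.3 (1 fit over 25 groups, no covariates, brightest probe per gene), with Benjamini-Hochberg adjustment over 20046 genes within each comparison at 0.05. Oxides were compared on material means. The F test of the dose change and the removal of 9 arrays were added after seeing the data. The fit was also run on simulated data. These had independent values and no arrays that stand apart, so they do not test the fit in the presence of such arrays. Members, lists and tests were chosen with earlier results of these data known. The text names the 7 measured members and genes most like the family, MT2A and MT1X. Of each list other than those of cell markers, it names up to 4 genes that passed at 30 µg/mL in the most materials (ties by smallest adjusted p). Cell markers were not named by this rule, and SLC30A1 and TAT were added after their values were seen. Python 3.11.15 was used with numpy 2.4.6, pandas 2.3.3 and matplotlib 3.10.9, and R with data.table (1.17.8). Alternatives covered the probe rule, a filter on dim genes, quantile and cyclic loess normalization, an offset of 50, blocks, limma's trend and robust prior, separate fits and leaving out arrays.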

Additional observations from a re-analysis of the deposited data

Results flagged for a closer look

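Within groups of 4 to 10 arrays, 12 of 175 sets of values held an array whose gap to its nearest neighbour was large for the range of the set, a rule that chance meets in about 1 of 20 sets. The 5 among the arrays that stand apart were MT2A at 13.74 in replicate 1 of L at 30 µg/mL and 13.50 in replicate 3 of L at 0.3, MT1H at 7.08 in that last array, MT1G at 11.39 in replicate 3 of M at 30, and MT1M at 6.86 in replicate 3 of A at 30.

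The other 7 were not in those arrays. In H at 0.3 µg/mL replicate 3 was the lowest for MT2A (11.74), MT1X (9.63) and MT1H (7.38). MT2A was low at 12.20 in replicate 5 of L at 3. High values were MT1G at 10.72 in replicate 5 of A at 3 and at 11.14 in replicate 1 of M at 3, and MT1X at 10.77 in replicate 4 of B at 3.

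The change from 0.3 to 30 µg/mL differed among the 8 materials for 4 members by limma's F test, with adjusted p of 0.00242 for MT1G, 0.00615 for MT1E, 0.00955 for MT2A and 0.0117 for MT1F.

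The array of M that could not be assigned a dose lay above the highest control for 4 members, with MT1F at 10.41 (highest control 9.96), MT1G at 11.38 (11.01), MT1H at 8.50 (8.30) and MT1M at 6.68 (6.65). MT2A read 12.87 there, within the controls. The array was also above every assigned M flask at 0.3 and at 3 µg/mL for 7 of 7 members. For neither count is the share of all genes given here.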

How the results depend on the processing

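Other settings were run on 7 counts of member calls, and no called result changed direction. Against control (4 calls), leaving out genes below the median level gave 7 calls, 4 higher and 3 lower, and leaving out the 9 arrays gave 15. The filter on dim genes kept 6 members and adjusted over fewer genes. Shares of all features are given above for the main fits and, by gene, without the 9 arrays. For the other settings no share is given, so their counts do not show a change particular to the members. Among pairs of materials at 30 µg/mL (23 calls) leaving out the 9 arrays gave 48. On every probe by itself (4 calls), the block of 12 arrays in the order of deposit gave 2 and leaving out the 9 arrays gave 11. Leaving out in turn each control, each array at 30 µg/mL and each replicate number at the lower doses, in 53 fits, gave 2 to 6 calls against control, 3 to 7 for 30 against 0.3 µg/mL, 17 to 29 among pairs, 3 to 5 for the F test at 30 µg/mL, 6 to 7 over all groups, 2 to 5 per probe and 0 to 0 between oxides. Quantile normalization moved no member value by more than 0.0244. The comparison of oxides was not run with blocks. Of the single values under these alternatives 5054 stayed on the same side of the threshold, 32 passed only under the alternative and 34 only in the main fit. Direction was compared only for values that passed in the main fit or in the alternative. Values that passed in neither could change sign. The replicate numbers of the titles are shared between groups but did not pair the arrays: same-numbered arrays deviated together with a mean r of 0.010, others with 0.0038, and 9 of 119 arrays correlated best with their own number. With the replicate number as a block the count against control was 6, with 2 higher and 4 lower, 30 against 0.3 µg/mL gave 6 and pairs gave 23. MT2A in M at 30 µg/mL against control passed under each alternative run. MT1E there lost its call with the replicate block, with the block of 12, in separate fits and without the 9 arrays.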
